A study of Mus musculus with 6 samples.

Results

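Heart RNA of mice kept at lunar gravity was compared with that of ground control mice for the genes that carry proteins into the endoplasmic reticulum (ER), attach and trim their sugar chains, fold them, and remove those that fail to fold. The set holds 39 genes, chosen by name for these roles, with earlier results of these data known, out of 49585 genes in the deposited table. They fall into the translocon (9 genes), signal peptidase (5), oligosaccharyltransferase (7), glucosidases (3), calnexin cycle (4), mannose recognition in ER-associated degradation, ERAD (4), and the membrane core of ERAD (7). All 6 libraries are heart RNA of male mice, 8 or 9 weeks old. The 3 ground control libraries (GC1 to GC3) are from mice held at 1 g, of the strain C57BL/6J according to the protocol text. The 3 lunar gravity libraries (LG1 to LG3) are from mice held at 0.167 g aboard the International Space Station, in cages spun at 31 rpm on a radius of 15 cm. For the lunar gravity mice the labels give no strain, and no 1 g flight group was analysed here, so gravity cannot be told apart from the other conditions of flight.

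Whether the libraries come from different mice is not stated in the labels, so the p-values measure the spread between these libraries, which may be technical. Library totals ran from 6461213 to 8271553 counts. The heart label held against its markers: the 6 cardiomyocyte genes summed to between 20847 and 23181 CPM (reads of a gene for each 1e6 counted, scaled by TMM) in every library. GC3 is a ground control by its title and treatment label, while the header of the deposited comparison puts it under partial gravity. It was kept as a ground control, and the results for called genes are also given without it.

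Most secreted and membrane proteins enter the ER through the Sec61 channel while they are being made. Signal peptidase cuts off the leader, and oligosaccharyltransferase moves a preformed sugar chain onto asparagines. Glucosidases trim that chain so that the lectin chaperones calnexin and calreticulin can hold the protein until it is folded, and chains trimmed of mannose send misfolded proteins to the Hrd1 ligase complex for extraction and degradation. In heart muscle the same compartment folds ion channels and matrix proteins, and calreticulin also binds calcium. Some of these genes carry the ER stress response element (ERSE) in their promoters, a sequence that the transcription factors ATF6 and XBP1 read in the unfolded protein response.

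The promoter stretches below are shown because they hold a complete ERSE or ERSE-II in genes whose RNA rose (Calr, Canx) and in genes that were not called (Syvn1, Herpud1). Each is the 250 bases before the RefSeq transcript start on GRCm38.p6, read on the gene's strand, and the capitals mark the fixed letters of the motif. The stretches lie at chr8:84846932-84847181 (minus strand) for Calr, chr11:50325674-50325923 (minus strand) for Canx, chr19:6046326-6046575 (plus strand) for Syvn1 and chr8:94386179-94386428 (plus strand) for Herpud1.
Calr: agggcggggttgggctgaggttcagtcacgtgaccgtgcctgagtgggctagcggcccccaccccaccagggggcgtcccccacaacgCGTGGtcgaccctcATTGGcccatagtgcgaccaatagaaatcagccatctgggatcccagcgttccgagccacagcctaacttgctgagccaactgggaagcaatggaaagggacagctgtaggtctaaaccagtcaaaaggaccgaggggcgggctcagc
Canx: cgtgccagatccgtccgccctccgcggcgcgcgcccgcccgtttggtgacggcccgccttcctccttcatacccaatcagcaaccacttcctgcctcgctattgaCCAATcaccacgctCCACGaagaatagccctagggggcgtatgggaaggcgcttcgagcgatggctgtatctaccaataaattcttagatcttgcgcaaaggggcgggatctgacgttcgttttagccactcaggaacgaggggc
Syvn1: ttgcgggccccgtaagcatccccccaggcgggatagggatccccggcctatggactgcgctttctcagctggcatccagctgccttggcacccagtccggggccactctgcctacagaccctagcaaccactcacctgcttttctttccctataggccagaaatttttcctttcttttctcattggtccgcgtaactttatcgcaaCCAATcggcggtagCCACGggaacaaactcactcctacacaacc
Herpud1: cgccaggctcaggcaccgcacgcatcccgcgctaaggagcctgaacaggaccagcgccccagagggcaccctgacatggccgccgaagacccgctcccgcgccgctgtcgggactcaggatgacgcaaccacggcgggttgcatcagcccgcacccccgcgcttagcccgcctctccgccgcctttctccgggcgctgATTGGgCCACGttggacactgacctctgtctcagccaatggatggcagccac
The ERSE was searched as CCAAT, then 9 bases of any kind, then CCACG, on both strands, in windows from 250 bases before to 50 after each start. It was found in 39 of 32851 RefSeq promoter windows (0.119%) and in 4 of 35 windows of the 33 members present in the promoter table (11.4%). Those 4 genes are Calr (bases -162 to -144, opposite strand), Canx (-145 to -127, same strand), Syvn1 (-44 to -26, same strand) and Derl3 (-156 to -138, opposite strand). ERSE-II, searched as ATTGG, 1 base of any kind and CCACG, was in 12 windows (0.0365%), of which the member is Herpud1 at -52 to -42. The core of the XBP1 element, TGACGTGG, was in 222 windows (0.676%), of which the member is Vcp at -114 to -107. The box CCACG alone, which every ERSE and ERSE-II also holds, was in 25 of 35 member windows (71.4%) and in 32.8% of all windows, with base composition not matched. These matches are letters in a window and no measure of binding. The ERSE was already known in promoters of some of these genes, so its share among members is no independent result and was not tested.

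Of the 39 genes, 38 passed the filter on low counts, and 3 of them were called higher at lunar gravity by edgeR's quasi-likelihood test (adjusted p under 0.05 over 12258 genes). They were Calr and Canx, the lectin chaperones, and Ostc, a subunit of oligosaccharyltransferase. This is 7.89% of the tested members, beside 1.56% of all genes tested. None was called lower (2.21% of all genes were), with 0 called lower by DESeq2 or limma voom. At an unadjusted p under 0.05, 1 member was lower (Prkcsh, beside 8.4% of all genes) and 5 were higher (the 3 called genes, Sel1l and Spcs2, beside 7.22% of all genes). In all, 23 of the 38 had a log2 fold change (lunar gravity over ground control) above 0, a share of 60.5% beside 50.2% of all genes. The median log2 fold change of the members was 0.05, beside 0.00067 for all genes. Groups of libraries did not overlap in 8 members that were higher (Ssr4, Spcs2, Ddost, Stt3b, Ostc, Calr, Canx and Sel1l) and 2 that were lower (Uggt2 and Edem3). Among all genes such separation was seen in 9.97% (higher) and 10.6% (lower).

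**Figure D1:**
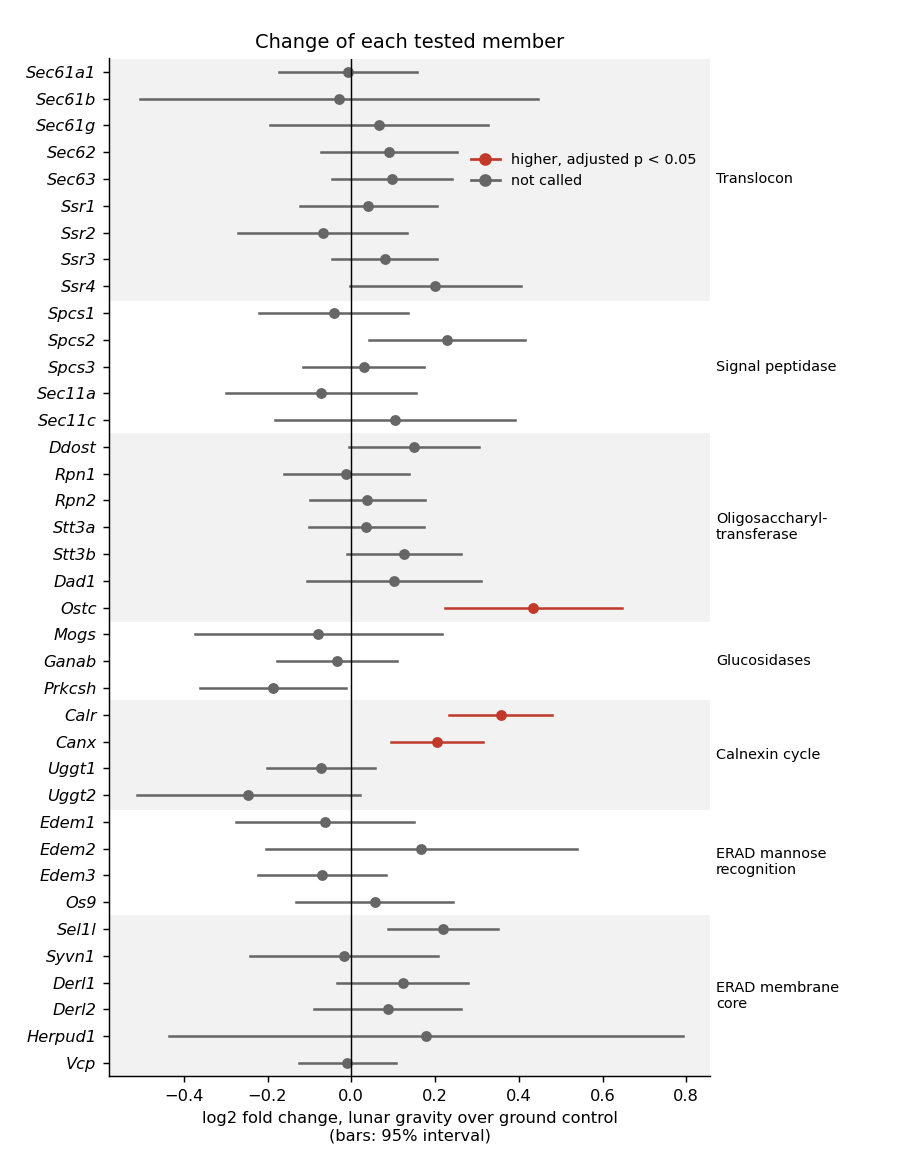
Log2 fold change (lunar gravity over ground control, x axis) of the 38 tested members, grouped by role, with 95% intervals as bars; red marks genes with an adjusted p under 0.05 by edgeR. Calr (0.36), Canx (0.20) and Ostc (0.43) are the 3 called genes, and Herpud1 has the widest interval (-0.44 to 0.79).

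In the calnexin cycle the chaperones were called higher and the folding sensors were not called, a difference that was not itself tested. Calr encodes calreticulin, the soluble lectin chaperone of the ER lumen (ENSMUSG00000003814, chr8:84841850-84846934, GRCm38). It measured 315, 312 and 269 CPM in GC1 to GC3 and 391, 386 and 371 CPM in LG1 to LG3. Every lunar gravity library lay above every ground control library, and GC3 was the lowest of the 6. The group means were 299 ± 25.6 and 383 ± 10.6 CPM (SD, n = 3), a rise of 1.28-fold (log2 fold change 0.36, SE 0.060, edgeR adjusted p = 0.000751). Leaving out any 1 library kept the call (adjusted p from 0.00128 to 0.00877). Without GC3 the log2 fold change was 0.29 (adjusted p = 0.00876), and with GC3 grouped as in the deposited header it was 0.18 (adjusted p = 0.766).

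Canx encodes calnexin, the membrane-bound partner of calreticulin (ENSMUSG00000020368, chr11:50293961-50325673). Its levels were 508, 509 and 480 CPM on the ground and 556, 567 and 602 CPM at lunar gravity. The groups did not overlap, and the gap between them, from 509 to 556 CPM, was larger than the spread within the ground controls. Means of 499 ± 16.8 and 575 ± 23.9 CPM (SD, n = 3) gave a rise of 1.15-fold (log2 fold change 0.20, SE 0.053, edgeR adjusted p = 0.0274). This call was lost when GC1 (adjusted p = 0.0792), GC2 (0.124), GC3 (0.143), LG2 (0.0682) or LG3 (0.0671) was left out, and under the deposited grouping of GC3 (0.701).

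Uggt1 and Uggt2 encode the glucosyltransferases that put a glucose back on unfolded glycoproteins and so return them to calnexin and calreticulin. Uggt1 had a log2 fold change of -0.07 (SE 0.063, edgeR adjusted p = 0.652), with a 95% interval of -0.20 to 0.06. Uggt2 measured 14.6, 14.4 and 15.1 CPM on the ground and 11.8, 13.1 and 12.2 CPM at lunar gravity, so that every lunar gravity library was below every ground control. Its log2 fold change of -0.25 (SE 0.13) did not pass the test (edgeR adjusted p = 0.370). Summed over Calr, Canx, Uggt1 and Uggt2, the cycle measured 951, 946 and 866 CPM on the ground and 1062, 1070 and 1088 CPM at lunar gravity, a sum carried mostly by Calr and Canx. Whether the chaperones and the sensors differ from each other in response was not tested.

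None of the 3 glucosidases, which prepare the sugar chain for those chaperones, was called, beside 1.56% (higher) and 2.21% (lower) of all genes. All 3 had log2 fold changes below 0, while 50.2% of all genes were above 0. Prkcsh, the beta subunit of glucosidase II, measured 48.5, 43.3 and 46.1 CPM on the ground and 38.2, 43.4 and 39.7 CPM at lunar gravity. Its groups overlapped by a narrow margin, since LG2 lay just above GC2. The log2 fold change was -0.19 (SE 0.084, 95% interval -0.36 to -0.01, edgeR adjusted p = 0.281). Ganab, the catalytic alpha subunit of glucosidase II, had a log2 fold change of -0.03 (95% interval -0.18 to 0.11). For Mogs, glucosidase I, levels were 15.3, 12.3 and 11.4 CPM on the ground and 11.7, 12.9 and 12.4 CPM at lunar gravity, and GC1 alone stood above the lunar gravity libraries. Its log2 fold change was -0.08 (edgeR adjusted p = 0.855).

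**Figure D2:**
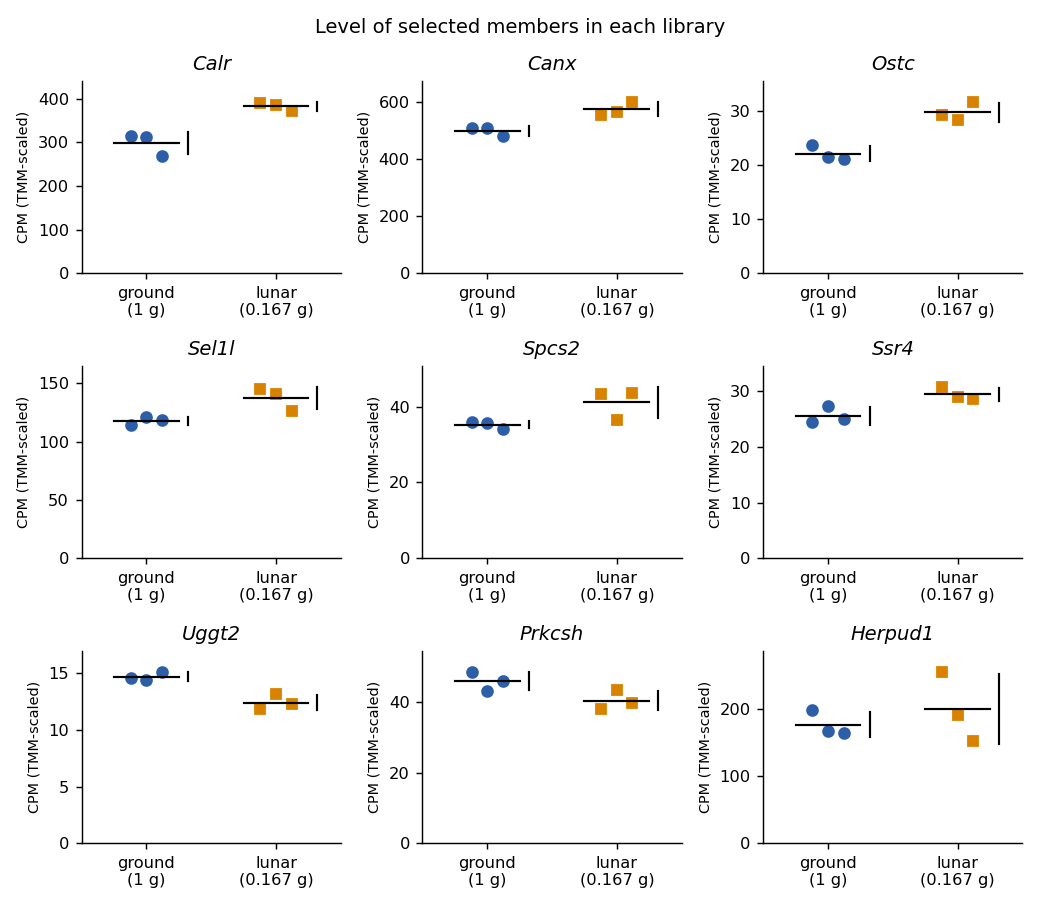
TMM-scaled CPM (y axis, from 0) of 9 members in each ground control (circles) and lunar gravity (squares) library, with the group mean as a line and its SD as a bar. The groups separate in Calr, Canx, Ostc, Sel1l, Spcs2 and Ssr4 (lunar gravity higher) and in Uggt2 (lunar gravity lower). Prkcsh overlaps between 43.3 and 43.4 CPM, and Herpud1 ranges from 153 to 255 CPM within lunar gravity.

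Of the 7 oligosaccharyltransferase genes, 1 was called higher (1.56% of all genes were) and none lower (2.21% of all genes were). The other 6 were not called. In all, 6 of the 7 had a log2 fold change above 0 (85.7%, beside 50.2% of all genes; median 0.10). Ostc, a subunit that ties the STT3A form of the enzyme to the translocon (ENSMUSG00000041084, chr3:130695912-130709444), measured 23.6, 21.4 and 21.1 CPM on the ground. At lunar gravity it measured 29.3, 28.3 and 31.7 CPM, with no overlap between the groups. The means were 22.1 ± 1.38 and 29.7 ± 1.75 CPM (SD, n = 3), a rise of 1.35-fold (log2 fold change 0.43, SE 0.10, edgeR adjusted p = 0.0147). Its call was lost with DESeq2 (adjusted p = 0.0678), without GC2 (0.0920), without GC3 (0.0598), without LG3 (0.0642) and under the deposited grouping (0.519). An unconfirmed transcript, Gm42998, overlaps 2371 bases of Ostc on the same strand.

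Ddost, a shared core subunit of the enzyme, measured 49.2, 53.7 and 50.5 CPM on the ground and 57.7, 57.5 and 55.2 CPM at lunar gravity. The groups did not overlap, but the log2 fold change of 0.15 did not pass (SE 0.075, edgeR adjusted p = 0.341). Stt3b, the catalytic subunit that adds chains missed during translation, stood at 0.13 on the log2 scale (adjusted p = 0.372), and Stt3a, which acts during translation, one of 0.04 (95% interval -0.10 to 0.17). The structural subunits Rpn1 (-0.01), Rpn2 (0.04) and Dad1 (0.10) were not called either. Beyond the 39 genes, Magt1, an oxidoreductase subunit of the STT3B form, rose from 64.0 ± 2.20 to 83.4 ± 4.73 CPM (SD, n = 3), by 1.31-fold (log2 fold change 0.38, SE 0.071, edgeR adjusted p = 0.00185). Its libraries were 66.1, 64.2 and 61.7 CPM on the ground and 81.6, 79.9 and 88.8 CPM at lunar gravity, and the call stayed without GC3 (adjusted p = 0.0109) but not under the deposited grouping (0.499). Tusc3, which takes the place of Magt1 in the same enzyme form, stood at 0.08 on the log2 scale (adjusted p = 0.816).

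None of the 9 translocon genes was called, beside 1.56% (higher) and 2.21% (lower) of all genes. Their log2 fold changes ran from -0.07 to 0.20 (median 0.07). The channel subunits Sec61a1 (-0.01, 95% interval -0.17 to 0.16), Sec61b (-0.03, -0.50 to 0.45) and Sec61g (0.07, -0.19 to 0.33) had values near 0. Sec61b rests on 25 to 43 counts a library, and 15.6% of the exon reads of Sec61g were placed uniquely, so both are less certain. Sec62 and Sec63, which help proteins enter after translation, had log2 fold changes of 0.09 and 0.10. In the translocon-associated protein complex, which assists the entry of some leaders, Ssr1 (0.04), Ssr2 (-0.07) and Ssr3 (0.08) varied little. The remaining subunit, Ssr4, measured 24.4, 27.4 and 24.9 CPM on the ground and 30.8, 28.8 and 28.6 CPM at lunar gravity. Those groups did not overlap, yet the log2 fold change of 0.20 did not pass (SE 0.099, edgeR adjusted p = 0.332).

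Signal peptidase had no gene called among its 5, beside 1.56% (higher) and 2.21% (lower) of all genes. Spcs2, an accessory subunit, measured 36.0, 35.5 and 34.1 CPM on the ground and 43.3, 36.5 and 43.7 CPM at lunar gravity. LG2 lay close to the ground controls while LG1 and LG3 were clearly above, and the log2 fold change of 0.23 did not pass (SE 0.090, edgeR adjusted p = 0.197). Spcs2 shares 4347 bases with Xrra1 on the other strand. The accessory subunits Spcs1 (-0.04) and Spcs3 (0.03) and the catalytic subunits Sec11a (-0.07) and Sec11c (0.10) had smaller log2 fold changes.

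**Figure D3:**
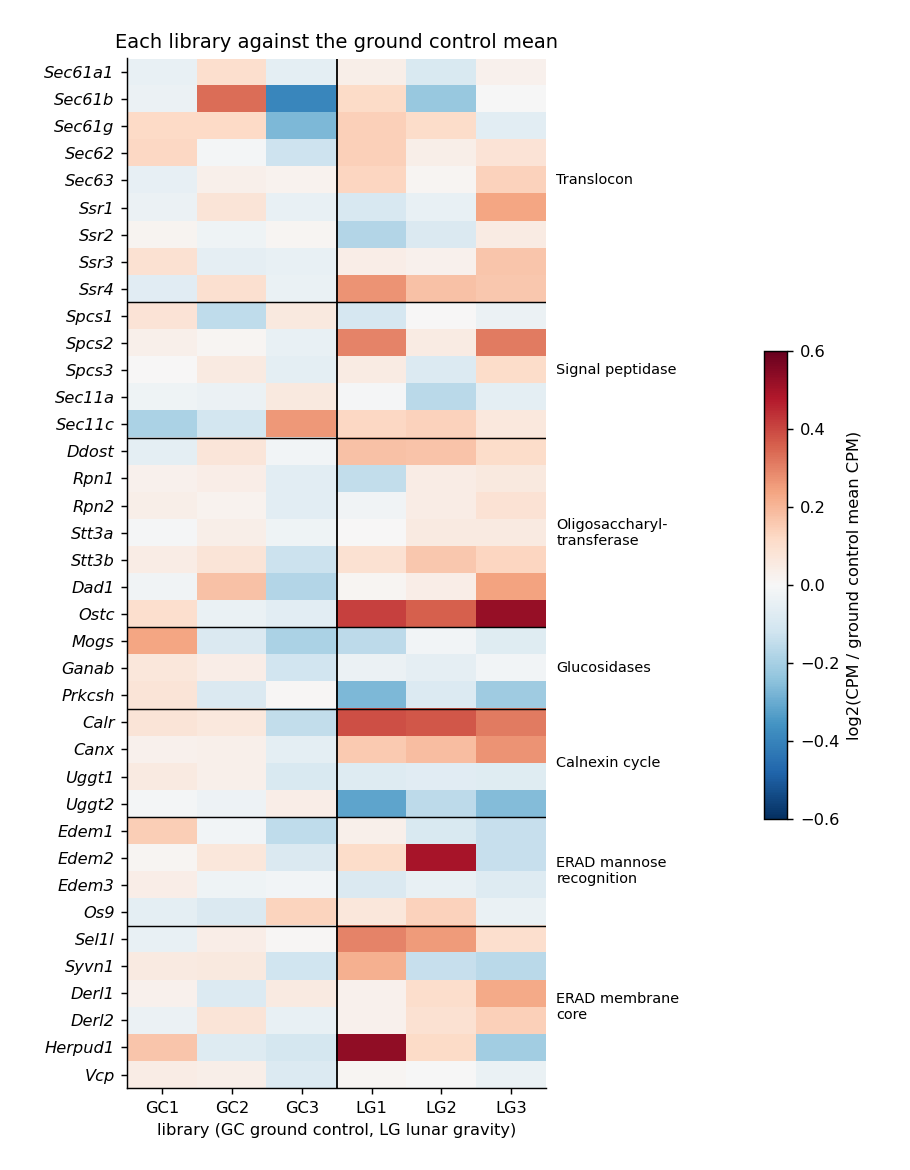
Log2 ratio of each library's CPM to the mean CPM of the ground controls, for the 38 tested members (rows, by role) in the 6 libraries (columns). Calr, Canx, Ostc and Sel1l are among many members above the ground control mean in all 3 lunar gravity libraries. Uggt2 is among those below it in all 3, and Sec61b varies most among the ground controls.

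In ERAD, none of the 10 tested genes passed, beside 1.56% (higher) and 2.21% (lower) of all genes. Sel1l, the adaptor that holds the Hrd1 ligase complex together, came closest, with 114, 121 and 118 CPM on the ground and 145, 141 and 126 CPM at lunar gravity. The groups did not overlap, and the means were 118 ± 3.53 and 137 ± 9.69 CPM (SD, n = 3; log2 fold change 0.22, SE 0.064, edgeR adjusted p = 0.0538). Sel1l passed the threshold under 4 of 18 alternatives, with upper quartile scaling (adjusted p = 0.0404), library totals (0.0217), no filter on low counts (0.0183) or LG3 left out (0.0125). It passed under none of the others, including DESeq2, limma voom, each other library left out and the deposited grouping of GC3. Leaving out 1 library gave edgeR adjusted p values from 0.0125 to 0.199. Syvn1, the Hrd1 ligase itself, whose promoter holds an ERSE, had a log2 fold change of -0.02 (95% interval -0.24 to 0.21).

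Herpud1, a stress-induced organiser of the Hrd1 complex, measured 198, 167 and 164 CPM on the ground and 255, 191 and 153 CPM at lunar gravity. LG1 was the highest of the 6 libraries and LG3 the lowest, so the groups overlapped and no difference was detectable (log2 fold change 0.18, SE 0.23, edgeR adjusted p = 0.805). An antisense gene, Gm15890, overlaps 535 bases of Herpud1. The derlins Derl1 (0.12) and Derl2 (0.09), which help to form the exit channel, were not called. Derl3, the form found mainly in secretory cells, had 1, 1 and 0 counts on the ground and 4, 9 and 2 at lunar gravity, and did not pass the filter on low counts. Tested with no filter it was not called (adjusted p = 0.158). Vcp, the ATPase that pulls proteins out of the membrane, had a log2 fold change of -0.01 (95% interval -0.13 to 0.11), with 18.1% of its exon reads placed uniquely. The gene 1700022I11Rik overlaps 3678 bases of Vcp on the other strand.

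The mannose-recognition genes gave log2 fold changes of -0.06 for Edem1, 0.17 for Edem2, -0.07 for Edem3 and 0.06 for Os9. Edem1, Edem2 and Edem3 encode mannosidase-family proteins that mark misfolded glycoproteins, and Os9 encodes the lectin that reads the mark. Edem3 was lower in every lunar gravity library, with 55.6, 53.2 and 53.5 CPM on the ground and 50.9, 52.5 and 51.2 CPM at lunar gravity, but did not pass (edgeR adjusted p = 0.733). Edem2 rests on 51 to 79 counts a library, and its LG2 library (11.2 CPM) stood above the other 5 (7.20 to 8.56 CPM).

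The 35 members that were tested and not called were not shown to be unchanged, but most had narrow 95% intervals. In 34 of the 35 the interval lay within 1.5-fold in either direction, the exception being Herpud1, and in 28 of the 35 it lay within 1.3-fold.

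Levels between genes were compared per length, as deposited RPKM in the ground controls. Canx (48.4 ± 2.47 RPKM, SD, n = 3), Calr (47.5 ± 4.81) and Vcp (47.1 ± 1.70) led and did not differ beyond their spread. The deposited RPKM includes reads placed at several sites. Of the exon reads of Vcp, 18.1% were placed uniquely, beside 99.6% for Calr and 100% for Canx, so the rank of Vcp is less certain. Herpud1 followed at 36.5 ± 3.96 and Ssr3 at 20.03 ± 1.29. Among the oligosaccharyltransferase genes, Ddost (11.0 ± 0.612), Stt3b (10.5 ± 0.976) and Ostc (9.41 ± 0.675) lay above Stt3a (3.83 ± 0.147). The paired folding sensors were unequal, with Uggt1 at 4.12 ± 0.286 and Uggt2 at 0.524 ± 0.0064 RPKM. Derl3 was the lowest, at a mean of 0.034 RPKM. Of the 3 called genes, Calr and Canx are therefore among the most abundant members per length, and Ostc lies well below them.

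**Figure D4:**
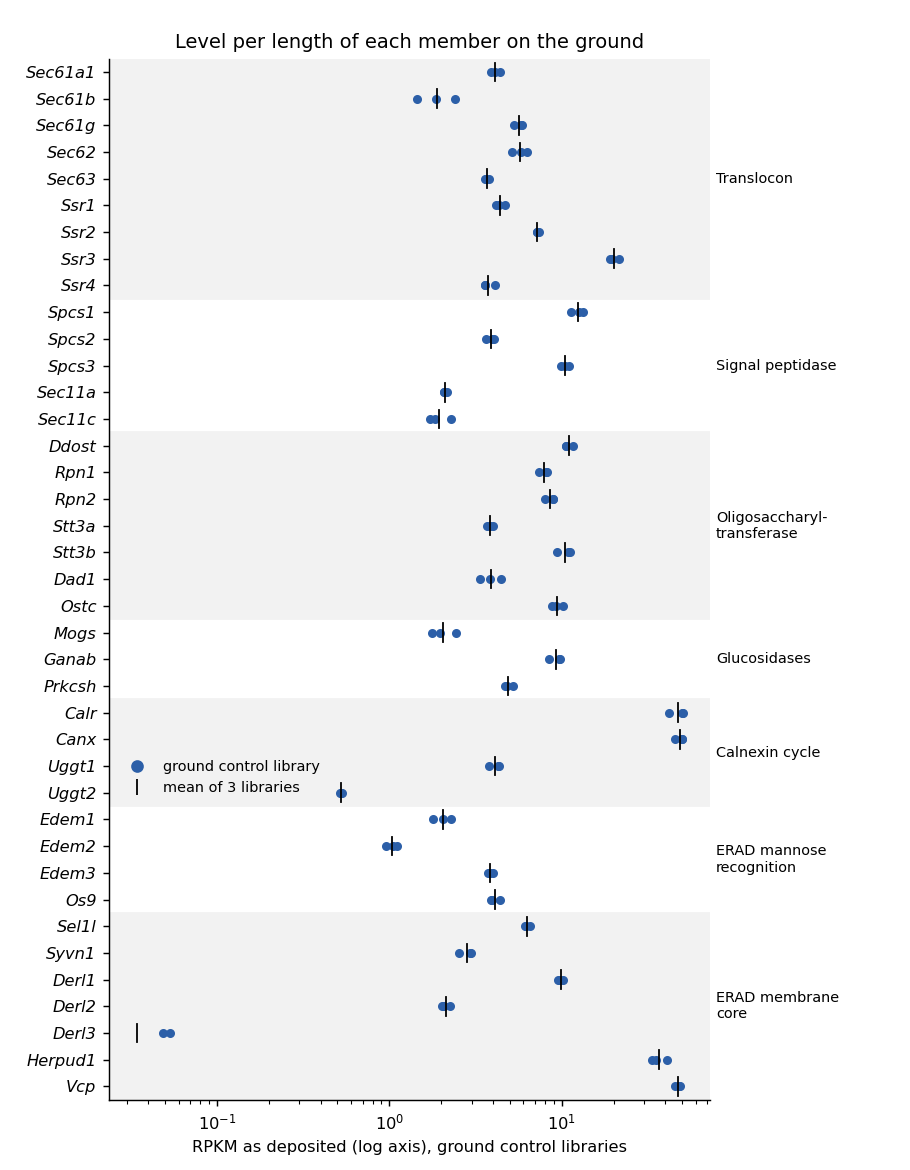
Deposited RPKM (x axis, log scale) of the 39 members in the 3 ground control libraries (points), with the mean as a tick; libraries at 0 are not drawn. Canx, Calr and Vcp lie near 48 RPKM, and Uggt2 (0.524) and Derl3 (0.034) are the lowest. The value of Vcp includes many reads placed at several sites (18.1% of its exon reads were placed uniquely).

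Intron reads, a separate count in the same libraries that reflects unspliced RNA, showed no call among the members. Their TMM factors separated the groups, at 0.930, 0.950 and 0.953 on the ground and 1.08, 1.06 and 1.04 at lunar gravity. The intron changes therefore rest on this scaling, and the cause of the shift was not tested. Of the 39 genes, 36 were tested (Spcs1, Mogs and Derl3 were too low), and 0 were called higher by edgeR, beside 0.373% of all 11787 genes, and 0 lower, beside 2.5%. DESeq2 and limma voom also called 0 in either direction. At an unadjusted p under 0.05, Ddost (log2 fold change 0.45, SE 0.19) and Spcs3 (0.51, SE 0.24) were higher and Vcp was lower (-0.30, SE 0.12), beside 5.46% of all genes higher and 8.68% lower. Libraries did not overlap in 2 members that were higher (Ddost and Edem2; 8.86% of all genes) and 4 that were lower (Stt3a, Prkcsh, Sel1l and Vcp; 10.1% of all genes). In all, 18 of the 36 were above 0, beside 51.2% of all genes. The median log2 fold change over the members was -0.0094, beside 0.0062 over all genes.

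Calr had few intron reads, 42, 16 and 22 on the ground and 22, 18 and 23 at lunar gravity, and GC1 stood apart from the other 5 libraries. Its intron log2 fold change was -0.41 (SE 0.34, 95% interval -1.13 to 0.30). Canx had 201, 179 and 196 intron reads on the ground and 253, 214 and 196 at lunar gravity, a log2 fold change of 0.14 (SE 0.12). For Ostc the counts were 20, 27 and 21 against 22, 23 and 21 (-0.10, SE 0.25). The intron interval of Calr includes 0, and its upper end of 0.30 lies just below the expression value of 0.36. That narrow margin rests on few reads, with GC1 apart, and on the TMM scaling. The difference between the exon and intron changes was not tested. For Canx the intron value lay within 1 SE of its expression value.

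**Figure D5:**
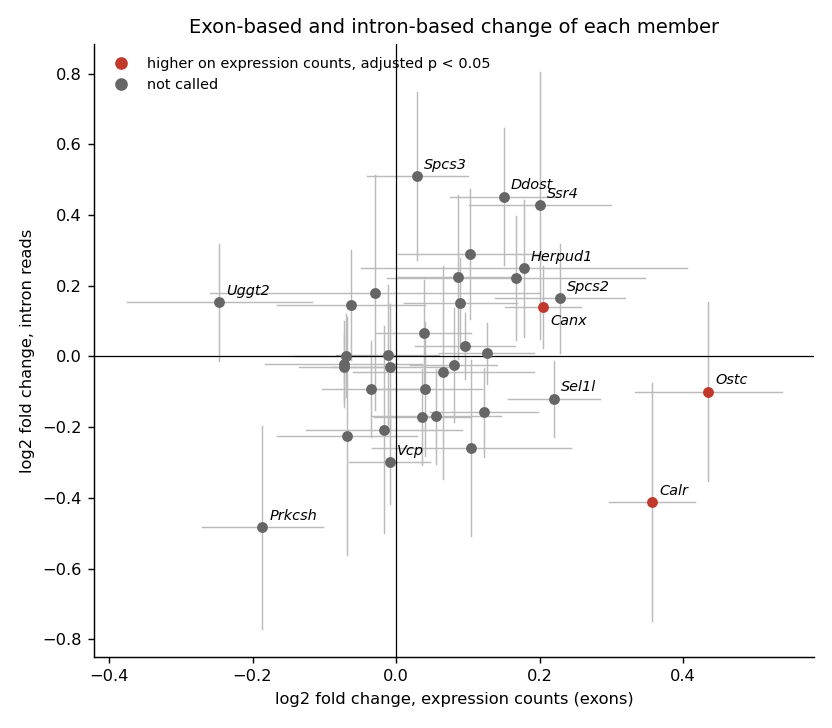
Log2 fold change on intron reads (y axis) against that on expression counts (x axis) for the 36 members with both, with 1 SE as bars; red marks the 3 genes called on expression counts. Calr and Ostc lie to the right at intron values of -0.41 and -0.10, and Canx at 0.14.

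A list of 116 other genes of the same pathway had 115 in the table and 110 tested. It held 4 called higher (3.64%, beside 1.56% of all genes) and 0 lower (2.21% of all genes were). At an unadjusted p under 0.05, 15 were higher (7.22% of all genes were) and 3 were lower (Alg8, Alg14 and Emc10; 8.4% of all genes were), and DESeq2 and limma voom called 0 lower. By class, 2 of 31 genes of targeting and membrane insertion were higher, 1 of 27 of sugar chain assembly and oligosaccharyltransferase, 0 of 16 of calnexin cycle partners and export, and 1 of 36 other ERAD genes. The median log2 fold change was 0.04 and 71 of the 110 were above 0 (64.5%, beside 50.2% of all genes).

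Beside Magt1, the called genes were Wrb, Ubxn6 and Srp54a. Wrb, a receptor subunit that inserts tail-anchored proteins into the ER membrane, measured 11.0, 14.7 and 13.6 CPM on the ground and 19.4, 19.1 and 18.8 CPM at lunar gravity. It rose 1.45-fold (log2 fold change 0.54, SE 0.13, edgeR adjusted p = 0.0156), without GC3 too (0.0301), but not with DESeq2 (0.0702), without GC1 (0.0970) or without LG2 (0.0622). Ubxn6, a cofactor of the ATPase Vcp, measured 42.6, 42.0 and 42.0 CPM on the ground and 56.3, 55.7 and 46.8 CPM at lunar gravity, a rise of 1.25-fold (adjusted p = 0.0299) that was lost with DESeq2 (0.112), with limma voom (0.0549), without GC3 (0.0754) and without each other library except LG3. Srp54a, a signal recognition particle subunit, passed narrowly (log2 fold change 0.44, adjusted p = 0.0499), though uniquely placed reads made up 0% of its exon reads. Its call was lost with DESeq2 (adjusted p = 0.116), limma voom (0.0821), the deposited grouping (0.681), and without GC1 (0.190), GC3 (0.152), LG2 (0.185) or LG3 (0.205), and its near-identical copy Srp54b had a log2 fold change of 0.04. Pdia3, the disulphide isomerase that works bound to calnexin and calreticulin, measured 173, 165 and 130 CPM on the ground and 198, 181 and 192 CPM at lunar gravity. Its log2 fold change of 0.29 did not pass (SE 0.088, edgeR adjusted p = 0.111).

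These are bulk libraries, in which fewer cells of a type and less RNA per cell cannot be told apart. Of the 8 marker lists of 6 genes each, the smooth muscle and pericyte sum was 1703 to 1745 CPM on the ground and 1786 to 1945 at lunar gravity, with 1 of 6 called higher (Rgs5; adjusted p without GC3 = 0.0463). Rgs5 alone carried that rise (772 to 793 against 879 to 1037 CPM), while the other 5 summed to 929 to 961 on the ground and 908 to 910 CPM at lunar gravity. Cardiomyocyte markers summed to 22832 to 23181 CPM on the ground and 20847 to 22807 at lunar gravity, with 1 of 6 called lower (Ryr2; adjusted p without GC3 = 0.00720). Without Ryr2 (6210 to 6636 against 4688 to 5267 CPM) the other 5 overlapped, at 16545 to 16765 against 16160 to 17540 CPM. Adipocyte markers summed to 302 to 313 against 268 to 291 CPM, with 0 of 2 tested called. Nearly all of that sum was Fabp4, and the other 5, Adipoq and Plin1 among them, summed to 3.66 to 5.95 against 5.16 to 6.58 CPM. The fibroblast (876 to 918 against 844 to 932 CPM, with Col1a1 called lower, adjusted p without GC3 = 0.0325), endothelial (1123 to 1172 against 1046 to 1187), macrophage (173 to 185 against 151 to 180) and erythroid (601 to 874 against 586 to 987) sums overlapped between the groups. Plasma and B cell markers summed to 8.45 to 13.4 against 9.43 to 9.84 CPM, and the plasma cell marker Jchain had 0 to 3 counts in every library. No marker was at 0 in all 6 libraries. The part of these marker differences in the rise of Calr, Canx and Ostc was not tested.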

How the data were processed

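RNA depleted of ribosomal RNA was sequenced from 3 ground control and 3 lunar gravity heart libraries and placed on GRCm38 (mm10), according to the submitters' processing notes. No label or header used here states the aligner, counter, annotation release or strand setting. Reads of overlapping and antisense genes may therefore be shared. The authors deposited 1 table of 49585 genes. Per the file headers it holds, for each library, whole read counts (expression values, exon reads and intron reads) and RPKM. The deposited RPKM matched total exon reads over exon length times 1 constant per library in 233 of 233 nonzero member values (relative tolerance 1e-6), so it includes reads placed at several sites. It was used only to compare levels between genes. Deposited starts count from 0 (adding 1 gave the GENCODE M21 start in 46269 of 49326 matched genes), and coordinates are printed from 1.

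Expression counts were filtered with filterByExpr (minimum count 10), TMM-scaled, and fitted in edgeR 4.0.16 (robust quasi-likelihood fit, R 4.3.3) on all genes, with no covariate, and Benjamini-Hochberg adjustment ran over 12258 genes. Unique intron reads of genes with annotated exons were treated likewise (11787 genes). The biological coefficient of variation was 6.20% for expression and 8.74% for intron counts. The chi-square per gene between replicates was 2.14 to 5.73, above counting noise, and none was merged. Standard errors divide the log2 fold change by the square root of edgeR's F, and robust fitting gives genes of unusual spread wider intervals. Named genes were all members, with library values for called members and for the 3 largest rises and falls among the others, and called genes of the wider list by p. Library values of Ddost, Herpud1, Derl3, Edem2, Edem3 and Pdia3, and the naming of other uncalled genes of the wider list, were added after their values were seen. The code was tested on simulated data.

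The members and lists were chosen with earlier results of these data known. Of the wider list, Srp54c is not analysed here. Promoters are from RefSeq (GRCm38.p6), without chromosome 18, matched by symbol for 33 members. The alternatives were other scalings, filters, tools (DESeq2 1.42.0, limma 3.58.1 voom) and read columns, a non-robust fit, the deposited grouping of GC3, a replicate block and leaving out each library.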

Additional observations from a re-analysis of the deposited data

How the results depend on the processing

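The counts of members called higher (3) and lower (0) on expression counts, and of members called on intron reads (0 in both directions), were recomputed under every alternative; total intron reads were added after seeing the data. Members called lower and members called on intron reads stayed at 0 throughout. Members called higher came to 4 with no filter, with upper quartile scaling or with library totals, to 2 with DESeq2, and to 0 with GC3 grouped as in the deposited header; leaving out 1 library gave 1 to 3, with 1 when GC2 or GC3 was left out. Other pathway genes called higher (4) came to 8 with no filter, 1 with DESeq2, 2 with limma voom and 0 with the deposited grouping; leaving out 1 library gave 1 to 4 (2 without GC1, 2 without GC3, 1 without LG2). Correlations of deviations between libraries of equal replicate number were 0.0076, -0.054 and 0.045, beside -0.073 to 0.072 for unequal numbers. They gave no sign of pairing but cannot show that the design had none. With the replicate number as a block, 3 members and 5 other pathway genes were higher. Over 42 named genes, 676 of 754 values kept direction and call; no called gene changed direction, and 34 values lost and 4 gained a call. Library totals in place of TMM moved the median log2 fold change of all genes to 0.045 for expression and 0.17 for intron counts.

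The genes that changed sign were all uncalled. With upper quartile scaling the log2 fold change became 0.0057 for Sec61a1, 0.0020 for Rpn1 and 0.0048 for Vcp. With library totals it became 0.036 for Sec61a1, 0.015 for Sec61b, 0.0013 for Spcs1, 0.031 for Rpn1, 0.0092 for Ganab, 0.028 for Syvn1 and 0.035 for Vcp. With the deposited grouping it became -0.12 for Sec61g, -0.016 for Sec62, -0.0015 for Ssr1, 0.013 for Spcs1, -0.018 for Spcs3, -0.014 for Rpn2 and -0.039 for Dad1. Leaving out 1 library gave ranges of -0.037 to 0.047 for Sec61a1, -0.19 to 0.18 for Sec61b, -0.052 to 0.13 for Sec61g, -0.070 to 0.11 for Ssr1, -0.11 to 0.0017 for Spcs1, -0.012 to 0.080 for Spcs3, -0.049 to 0.054 for Rpn1, -0.16 to 0.052 for Mogs, -0.088 to 0.0012 for Ganab, -0.13 to 0.017 for Edem1, -0.0086 to 0.31 for Edem2, -0.15 to 0.054 for Syvn1, -0.039 to 0.34 for Herpud1 and -0.048 to 0.014 for Vcp. The cause was not tested.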

Other observations

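The ERSE occurs in promoter windows of 37 genes of the RefSeq table outside chromosome 18, of which 15 were tested. This list was drawn up after the values of its members were known and is given without a test. Of the 15, 5 were called higher by edgeR (1.56% of all genes were): Calr, Canx, and 3 other ER folding genes. Those 3 were Hsp90b1, Hspa5 and Pdia6, with log2 fold changes of 0.75 (SE 0.060), 0.57 (SE 0.058) and 0.61 (SE 0.071). Without GC3 these were 0.68, 0.50 and 0.53, each still called. Under the deposited grouping of GC3, Calr and Canx were not called, and the other 3 are not given here. None of the 15 was called lower (2.21% of all genes were), and 12 of 15 were above 0, beside 50.2% of all genes. The median log2 fold change was 0.20, beside 0.00067 over all genes. Syvn1, with an ERSE 44 bases before its start, was at -0.02 (SE 0.11). Dnajc3, an ER cochaperone, was at 0.11 (SE 0.085), and Creld2, an ER stress-induced secreted protein, at 0.51 (SE 0.16, edgeR adjusted p = 0.0767).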
